A study of Mus musculus with 9 samples.

Results

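The beta-tubulin isotypes were described in G1E cells, a mouse erythroid progenitor line without functional Gata1. Members were the rows of the deposited gene count table that carry the symbols Tubb1, Tubb2a, Tubb2b, Tubb3, Tubb4a, Tubb4b, Tubb5 and Tubb6, 8 of the 27999 rows in all. All 3 groups were the same cell line, kept in IMDM with fetal calf serum, murine stem cell factor and erythropoietin, and all had been spin-infected with virus packaged in 293T cells. The first group received a vector carrying a human GATA1 mutant (mutant cells), the second a vector carrying human wildtype GATA1 (wildtype cells), and the third the empty HMD vector (empty vector cells). GATA1 is a zinc-finger transcription factor needed for red cell maturation. Each group held 3 libraries, described as biological replicates in the series. Which mutation was used, when cells were lysed after infection and whether infected cells were selected is not given in the sources used here. Every library comes from 1 line, so the p-values refer to the spread among its cultures. The RNA is that of whole cultures, in which fewer cells of a type and less RNA per cell cannot be told apart.

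Beta-tubulin pairs with alpha-tubulin to form the dimer from which microtubules grow. The isotypes have a nearly shared folded core and differ most in an acidic carboxy-terminal tail, which projects from the microtubule and is the site of added glutamate chains. Tubb5 and Tubb4b are made in most tissues. Tubb2a, Tubb2b, Tubb3 and Tubb4a are best known from the nervous system, Tubb6 is a widely and weakly expressed isotype, and Tubb1 is the isotype of the blood lineage, known for the marginal microtubule band of platelets.

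The coding ends of 6 members are shown because they set Tubb1, the most divergent isotype, beside 5 others. Each line gives the last 60 bases before the stop codon, read 5′ to 3′ on the coding strand, from GENCODE M21 transcripts on GRCm38. Capitals mark in-frame GAA and GAG codons, which encode glutamate.
Tubb1 (chr2:174457820-174457879, plus strand): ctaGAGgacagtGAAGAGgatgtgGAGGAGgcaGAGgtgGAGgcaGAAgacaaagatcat
Tubb5 (chr17:35834985-35835044, minus strand): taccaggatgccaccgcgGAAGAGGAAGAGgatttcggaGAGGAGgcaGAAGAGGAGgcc
Tubb4b (chr2:25222311-25222370, minus strand): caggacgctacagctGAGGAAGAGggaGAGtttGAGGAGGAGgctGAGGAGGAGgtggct
Tubb2a (chr13:34074471-34074530, minus strand): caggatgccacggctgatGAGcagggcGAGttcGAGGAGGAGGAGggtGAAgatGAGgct
Tubb2b (chr13:34127474-34127533, minus strand): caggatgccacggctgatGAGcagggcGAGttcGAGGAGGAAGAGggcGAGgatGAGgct
Tubb3 (chr8:123421620-123421679, plus strand): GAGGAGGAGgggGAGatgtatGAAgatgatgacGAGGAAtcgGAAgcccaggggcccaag
These ends held 8 glutamate codons in Tubb1, 9 in Tubb5, 10 in Tubb4b and 8 in each of Tubb2a, Tubb2b and Tubb3. Tubb1 also had 4 aspartate codons there, against 3 in each of Tubb2a, Tubb2b and Tubb3, 2 in Tubb5 and 1 in Tubb4b. Over the whole coding sequence Tubb1 was 73.9% to 76.4% identical to the other 7 members, while Tubb2a and Tubb2b were 96.5% identical to each other. The coding sequence had 451 codons in Tubb1, 450 in Tubb3, 447 in Tubb6, 445 in Tubb2a, Tubb2b and Tubb4b, and 444 in Tubb4a and Tubb5. All 8 genes had 4 exons in the annotated transcript used.

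Similarity bears on which reads can be assigned. Among windows of 50 bases along each transcript, none of those of Tubb1, Tubb3 or Tubb6 and 0.115% of those of Tubb5 occurred in the transcript of another gene. The share was 49.6% for Tubb2a and 39.3% for Tubb2b, mostly through each other, and 55.5% for Tubb4b, mostly through the pseudogenes Tubb4b-ps1 and Tubb4b-ps2. How reads with several matches were counted is not given in the sources used here, so levels of Tubb2a, Tubb2b and Tubb4b are uncertain to that extent. In the annotation Tubb3 overlaps Gm20388 on the same strand. Tubb4b overlaps Fam166a on the opposite strand, and the libraries keep no strand.

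Libraries held 11364358 to 17289307 counts. A floor of 3 counts, the limit that a count of 0 allows, was 0.170 to 0.289 CPM (counts scaled to the normalised library size). Intervals and floors cover counting error only. Human GATA1 stood at 575 to 693 CPM in mutant cells and 787 to 919 CPM in wildtype cells, with 0 to 2 counts in empty vector libraries. The 10 erythroid markers of the list used summed to 2055 to 2206 CPM in mutant cells, 18907 to 29817 CPM in wildtype cells and 796 to 901 CPM in empty vector cells. Mutant replicates 1 and 2 were closer to each other than any other pair of libraries of 1 group, with a chi-square of 2.20 per gene against 14.96 to 55.5 in the other 8 pairs. They differed by more than sampling noise, which does not tell whether they came from separate cultures, and were counted as separate libraries.

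In wildtype cells Tubb1 and Tubb4b were higher than in empty vector cells, and Tubb2b and Tubb6 were lower. Tubb2a, Tubb3 and Tubb5 did not pass the test, and Tubb4a was too low to be tested. Thus 4 of the 7 members tested were called, by edgeR at an adjusted p under 0.05, where 23.3% of all 9978 tested genes were called in that comparison. Of these 4, Tubb1 entered the test only through its wildtype libraries. The members' median log2 fold change was 0.07, beside -0.04 over all tested genes. By direction, 11.4% of tested genes were higher and 11.9% lower. In mutant cells no member was called against empty vector cells, where 0.271% of tested genes were called, 0.21% higher and 0.0601% lower. That share rested on single libraries: it was 8.3% without empty vector replicate 3, with 227 genes higher and 610 lower, and ranged down to 0.0692% without empty vector replicate 2, and no member was called in either fit. Between mutant and wildtype cells Tubb2b was called higher and Tubb1 lower, where 25.9% of tested genes were called, 13.2% higher and 12.7% lower. The comparisons of mutant and of wildtype cells with empty vector cells share the 3 empty vector libraries.

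**Figure D1:**
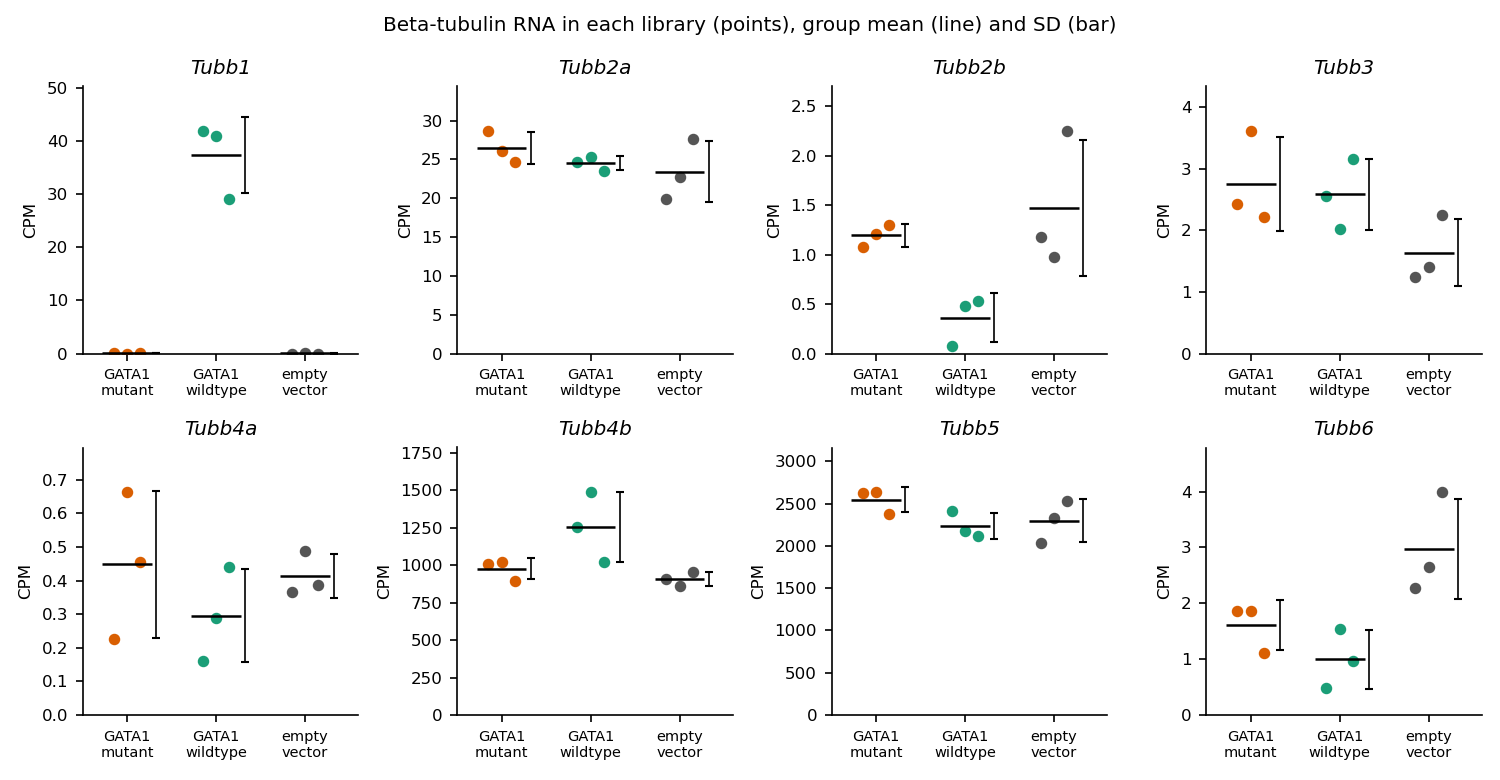
Level of each beta-tubulin gene in CPM (vertical axes, each from 0 and on its own scale) in the 3 libraries of mutant, wildtype and empty vector cells; points are libraries, lines are group means and bars are SDs. Tubb1 stands at 29.1 to 41.9 CPM in the wildtype libraries and at no more than 1 count in the other 6.

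Tubb1 (chromosome 2, 174450695 to 174457882, plus strand) was near 0 in mutant and empty vector cells and at a measurable level in wildtype cells. It had 1, 0 and 1 counts in mutant replicates 1 to 3, against 524, 424 and 331 counts in wildtype replicates 1 to 3 and 0, 1 and 0 counts in empty vector replicates 1 to 3. The wildtype values are 41.9, 40.8 and 29.1 CPM, a mean of 37.3 ± 7.13 CPM (SD, n = 3), and all are far above the floor of 3 counts, which none of the other 6 libraries reached. The ratio of wildtype to empty vector cells was 1623, with a 95% counting interval of 291 to 64139 that is wide because 1 count stands on the empty vector side. The ratio of mutant to wildtype cells was 0.00108, with an interval of 0.000130 to 0.00390. edgeR called both differences, with Benjamini-Hochberg adjusted p-values of 5.36e-09 for wildtype against empty vector cells and 1.37e-08 for mutant against wildtype cells. Tubb1 passed the low-count filter only through its wildtype libraries, so these p-values belong to a gene admitted by the group in which it is high. The calls stood in all 17 alternative fits of wildtype against empty vector cells and in all 18 of mutant against wildtype cells. Mutant and empty vector libraries were all under the floor, so no fold is given between them.

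Tubb1 is also a platelet gene, so markers of megakaryocytes, the cells that make platelets, were set beside it. Of 16 listed markers 8 could be tested, and 6 of these were lower and none higher in wildtype than in empty vector cells, by edgeR. Over all tested genes 11.9% were lower and 11.4% higher. With a filter of 5 CPM in 3 libraries, which leaves low genes untested, 4 markers were called lower. Unadjusted, 6 had a p under 0.05, and DESeq2 also called 6 lower and 0 higher. The 16 markers summed to 96.6 to 116 CPM in mutant cells, 59.7 to 73.0 CPM in wildtype cells and 128 to 151 CPM in empty vector cells. Pf4 (platelet factor 4) averaged 7.55 ± 1.41 CPM in wildtype cells and 24.97 ± 4.96 CPM in empty vector cells. Ppbp (a platelet chemokine) averaged 0.627 ± 0.365 CPM in wildtype cells and 2.68 ± 0.213 CPM in empty vector cells. Gp1bb, Vwf, Clec1b, Selp and Mmrn1 had no count in any library. Tubb1 and the sum of this list thus moved in opposite directions between empty vector and wildtype cells.

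Tubb1 transcription in the megakaryocyte lineage is known to depend on NF-E2, a dimer of Nfe2 with a small Maf protein. Of 6 tested genes of that complex and its relatives, 2, Mafk and Bach1, were higher in wildtype than in empty vector cells, where 23.3% of all tested genes were called, and lower in mutant than in wildtype cells, where 25.9% were. Mafk (a small Maf partner) had 66.4, 63.2 and 58.6 CPM in mutant libraries, 103, 110.0 and 101 CPM in wildtype libraries and 50.5, 52.2 and 55.2 CPM in empty vector libraries. Its wildtype values overlapped neither other group, with a log2 fold change of 0.99 ± 0.11 (SE; edgeR adjusted p = 2.97e-05) against empty vector cells. Nfe2 itself was not called. Bach1 (a repressor that uses the same partners) averaged 3.12 ± 0.510 CPM in mutant cells, 5.64 ± 1.58 CPM in wildtype cells and 3.33 ± 0.171 CPM in empty vector cells. Its call in wildtype against empty vector cells (edgeR adjusted p = 0.0360) was lost when any single library of these 6 was left out except wildtype replicate 2, and without mutant replicate 2, with adjusted p-values up to 0.103, and also with a replicate block (0.0581). Its call in mutant against wildtype cells (edgeR adjusted p = 0.0194) was lost without mutant replicate 1 (0.0901) or 2 (0.0512) and without wildtype replicate 1 (0.0534) or 3 (0.0603).

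The sequence before the start of Tubb1, which was higher in wildtype cells, is shown beside those of Tubb4b, also higher, and Tubb5, not called. Each line gives the 250 bases before the RefSeq start on GRCm38.p6, 5′ to 3′ on the gene's strand; 6 of the 8 members matched the RefSeq table. Capitals mark GATA words and CACCC, each searched on both strands. A GATA word was GATA with A or T before it and A or G after it, and a match on the other strand appears as its reverse complement.
Tubb1 (chr2:174450345-174450594, plus strand): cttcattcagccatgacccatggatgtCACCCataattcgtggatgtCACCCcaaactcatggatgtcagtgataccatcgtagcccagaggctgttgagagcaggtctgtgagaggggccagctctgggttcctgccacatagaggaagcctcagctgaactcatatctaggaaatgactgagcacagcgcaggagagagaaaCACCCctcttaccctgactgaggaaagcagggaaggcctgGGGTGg
Tubb4b (chr2:25224703-25224952, minus strand): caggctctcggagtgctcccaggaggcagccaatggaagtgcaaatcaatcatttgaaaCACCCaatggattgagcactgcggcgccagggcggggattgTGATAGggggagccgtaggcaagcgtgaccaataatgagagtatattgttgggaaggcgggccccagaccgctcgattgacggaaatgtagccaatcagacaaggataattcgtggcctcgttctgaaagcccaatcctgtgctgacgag
Tubb5 (chr17:35838302-35838551, minus strand): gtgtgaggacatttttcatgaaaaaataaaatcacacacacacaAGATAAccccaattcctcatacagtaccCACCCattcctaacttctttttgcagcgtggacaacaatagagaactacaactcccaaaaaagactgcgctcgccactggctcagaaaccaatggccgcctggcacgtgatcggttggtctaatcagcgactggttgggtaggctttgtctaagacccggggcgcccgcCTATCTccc
The window of Tubb1 held no GATA word and 4 CACCC matches. The window of Tubb4b held 1 GATA word and 1 CACCC, and that of Tubb5 held 2 GATA words and 1 CACCC. Of 32851 windows of the same length in the table, 26.5% held at least 1 GATA word and 52.0% at least 1 CACCC. None of the 6 members held TGAGTCA, the core of the NF-E2 and AP-1 sites, which 4.46% of windows held. The RefSeq start of Tubb1 lies outside the GENCODE transcript used here. A match of letters is a description of the window and not a binding site, and sequence elsewhere was not searched.

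Tubb5 (chromosome 17, 35833921 to 35838306, minus strand), the constitutive isotype of dividing cells, had the highest mean level per length in all 3 groups. In wildtype replicate 2 Tubb4b was higher per length, at 930 against 821 CPM per kilobase. Tubb5 stood at 2624, 2636 and 2377 CPM in mutant libraries, 2410 (replicate 1), 2174 and 2119 CPM in wildtype libraries, and 2034, 2334 and 2530 (replicate 3) CPM in empty vector libraries. The groups overlapped in each of the 3 comparisons. Log2 fold changes were -0.04 ± 0.12 for wildtype against empty vector cells, 0.15 ± 0.12 for mutant against empty vector cells and 0.19 ± 0.12 for mutant against wildtype cells (SE), with edgeR adjusted p-values of 0.827, 0.579 and 0.261. The first of these had the opposite sign, 0.03, without empty vector replicate 3.

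Tubb4b (chromosome 2, 25222160 to 25224702, minus strand), the other abundant isotype and a main component of cilia elsewhere, was moderately higher in wildtype cells. It stood at 1009, 1023 and 895 CPM in mutant libraries, 1254, 1487 and 1021 CPM in wildtype libraries, and 904, 863 and 952 CPM in empty vector libraries. All wildtype libraries were above all empty vector libraries, and wildtype replicate 3 was just below the highest mutant library. The mean was 1254 ± 233 CPM in wildtype cells and 907 ± 44.2 CPM in empty vector cells (SD, n = 3 each), a log2 fold change of 0.47 ± 0.14 (SE; edgeR adjusted p = 0.0258). The call was lost in edgeR without wildtype replicate 1 (adjusted p = 0.0664) or 2 (0.110) and without empty vector replicate 1 (0.0572) or 2 (0.110), with a replicate block (0.0504) and with only the wildtype and empty vector libraries in the fit (0.0645). Mutant cells averaged 976 ± 70.1 CPM, and against wildtype cells the log2 fold change was -0.36 ± 0.14 (edgeR adjusted p = 0.0685). With a block for replicate number in the fit of the 6 mutant and wildtype libraries, a fit in which 48.1% of genes were called, that difference was called (edgeR adjusted p = 0.00431). It was also called by edgeR without wildtype replicate 3 (0.00813) and by DESeq2 on all 9 libraries. Against empty vector cells mutant cells had a log2 fold change of 0.11 ± 0.14 (edgeR adjusted p = 0.744).

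Among the isotypes best known from neurons, Tubb2a was at a moderate level, and Tubb2b, Tubb3 and Tubb4a were at few counts. Tubb2a (chromosome 13, 34074274 to 34078007, minus strand) had 28.7, 26.1 and 24.6 CPM in mutant libraries, 24.7, 25.3 and 23.5 CPM in wildtype libraries and 19.9, 22.7 and 27.6 CPM in empty vector libraries. The groups overlapped in all 3 comparisons, and log2 fold changes ran between 0.07 and 0.18 with edgeR adjusted p-values of 0.593 to 0.776. Wildtype against empty vector cells gave -0.04 without empty vector replicate 1.

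Tubb2b (chromosome 13, 34126748 to 34130466, minus strand), the near copy of Tubb2a that is prominent in developing brain, was lowest in wildtype cells. It had 19, 20 and 20 counts in mutant replicates 1 to 3, 1, 5 and 6 counts in wildtype replicates 1 to 3, and 16, 14 and 35 counts in empty vector replicates 1 to 3. The wildtype libraries lay below every other library. Means were 1.19 ± 0.113 CPM in mutant cells, 0.363 ± 0.246 CPM in wildtype cells and 1.47 ± 0.686 CPM in empty vector cells (SD, n = 3 each). The log2 fold change of wildtype against empty vector cells was -2.05 ± 0.53 (SE; edgeR adjusted p = 0.0132), and the call was lost without wildtype replicate 1 (0.0688) and also without replicate 3 of the empty vector (0.0509). That of mutant against wildtype cells was 1.73 ± 0.53 (edgeR adjusted p = 0.0312). This second call was lost without mutant replicate 1 (0.0663), 2 (0.0731) or 3 (0.0670), without wildtype replicate 1 (0.126) or 2 (0.0545), and with mutant replicates 1 and 2 summed (0.0614). Mutant and empty vector cells overlapped, with a log2 fold change of -0.31 ± 0.40 (edgeR adjusted p = 0.739), which was 0.15 without empty vector replicate 3. When Tubb2a and Tubb2b were summed as near copies, the pair had a log2 fold change of -0.00 for wildtype against empty vector cells (edgeR adjusted p = 0.9997) and Tubb2a supplied most of its counts.

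Tubb3 (chromosome 8, 123411424 to 123422015, plus strand), the isotype used as a neuron marker, had 43, 60 and 34 counts in mutant replicates 1 to 3, 32, 21 and 36 counts in wildtype replicates 1 to 3, and 17, 20 and 35 counts in empty vector replicates 1 to 3. Both GATA1 groups overlapped empty vector cells through empty vector replicate 3. Log2 fold changes were 0.65 ± 0.32 for wildtype and 0.74 ± 0.31 for mutant against empty vector cells (SE), with edgeR adjusted p-values of 0.161 and 0.364, and 0.09 ± 0.30 (0.851) for mutant against wildtype cells. The last had the opposite sign without mutant replicate 2 (-0.15) or wildtype replicate 2 (-0.05). Of 7 neuron markers 0 passed the low-count filter. Their sum was 0.362 to 0.714 CPM in mutant cells, 0 to 0.439 CPM in wildtype cells and 0.140 to 0.513 CPM in empty vector cells, and Rbfox3, Snap25 and Elavl4 had no count in any library. Tubb4a (chromosome 17, 57080066 to 57087782, minus strand), known from brain myelin-forming cells, had 4, 11 and 7 counts in mutant replicates 1 to 3, 2, 3 and 5 in wildtype replicates 1 to 3, and 5, 7 and 6 in empty vector replicates 1 to 3, and did not pass the filter.

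Tubb6 (chromosome 18, 67390717 to 67402749, plus strand) was lower in wildtype cells, and its mutant mean lay between those of the other groups. It had 33, 31 and 17 counts in mutant replicates 1 to 3, 6, 16 and 11 counts in wildtype replicates 1 to 3, and 31, 38 and 62 counts in empty vector replicates 1 to 3. As CPM, every mutant and wildtype library lay below every empty vector library, and mutant and wildtype libraries overlapped. Means were 1.61 ± 0.440 CPM in mutant cells, 0.996 ± 0.531 CPM in wildtype cells and 2.97 ± 0.902 CPM in empty vector cells (SD, n = 3 each). The log2 fold change of wildtype against empty vector cells was -1.61 ± 0.40 (SE; edgeR adjusted p = 0.0103), and the call was lost without wildtype replicate 1 (0.0631). Mutant against empty vector cells gave -0.88 ± 0.35 (edgeR adjusted p = 0.355) and mutant against wildtype cells 0.73 ± 0.42 (0.214).

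**Figure D2:**
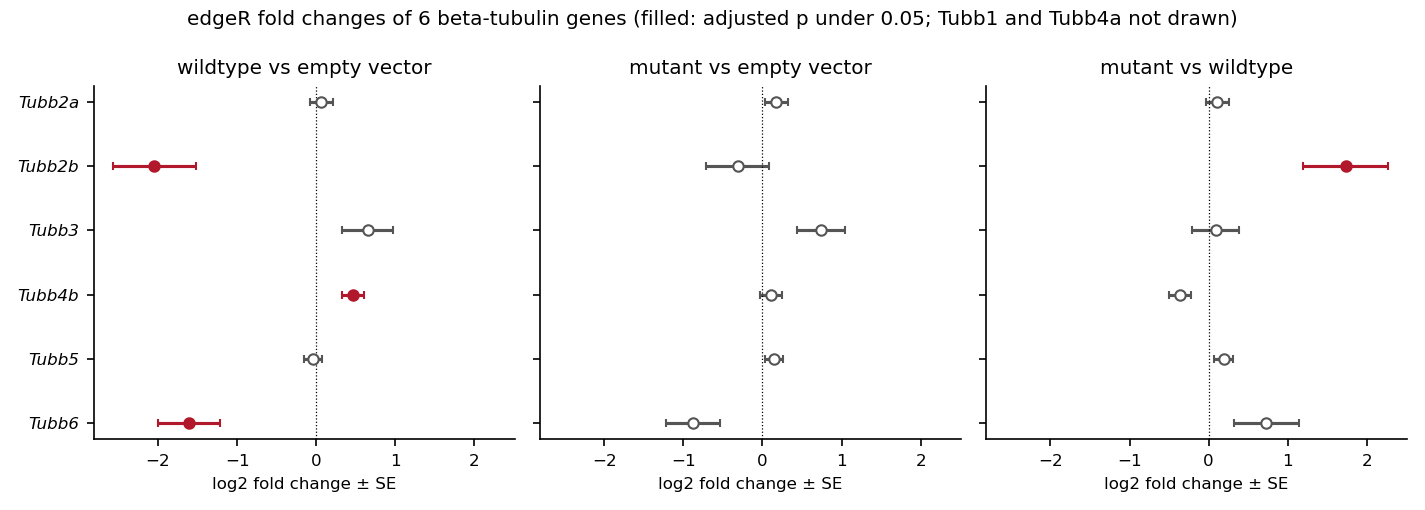
Log2 fold change with its SE (horizontal axis) of the 6 tested members other than Tubb1, in wildtype against empty vector, mutant against empty vector and mutant against wildtype cells; filled points have an edgeR adjusted p under 0.05. Tubb2b, Tubb4b and Tubb6 are called in the first comparison, none in the second and Tubb2b in the third.

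With the mutant 7 of 7 tested members were not called against empty vector cells, where 0.271% of all tested genes were called. Tubb1 passed the low-count filter through its wildtype libraries. It held at most 1 count in each mutant or empty vector library, so the test could not decide on it. Unadjusted, 2 members, Tubb3 and Tubb6, were under 0.05 in edgeR, and DESeq2 called 0 members as well. At that unadjusted level 1284 of 9978 genes, or 12.9%, passed. Read without a test, the groups' CPM failed to overlap for 1 of 8 members, Tubb6, where 15% of 9968 tested genes with a unique symbol did not overlap. The same count was 4 of 8 for wildtype against empty vector cells, where 32.6% of genes did not overlap, and 2 of 8 for mutant against wildtype cells, where 44.2% did not.

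Summed over the 8 genes, beta-tubulin RNA overlapped between the groups. The sum was 3667, 3693 and 3302 CPM in mutant libraries, 3733, 3731 and 3197 CPM in wildtype libraries and 2964, 3226 and 3519 CPM in empty vector libraries. In each comparison the library ranges crossed, and the ratio of means was 1.10 for wildtype and 1.10 for mutant over empty vector cells and 1.0 for mutant over wildtype cells. With library totals in place of the normalised sizes the last ratio was 1.08. The sum was 0.365%, 0.338% and 0.330% of all counts in mutant, wildtype and empty vector cells.

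Within that sum the wildtype libraries stood apart in composition. Tubb5 made up 71.5%, 71.4% and 72.0% of beta-tubulin counts in mutant libraries, 64.5%, 58.3% and 66.3% in wildtype libraries and 68.6%, 72.4% and 71.9% in empty vector libraries. Tubb4b made up 27.5%, 27.7% and 27.1% in mutant libraries, 33.6%, 39.9% and 31.9% in wildtype libraries and 30.5%, 26.8% and 27.1% in empty vector libraries. For both genes wildtype libraries overlapped neither other group, and mutant libraries lay within the empty vector range. Tubb1 held 1.12%, 1.09% and 0.909% of beta-tubulin counts in wildtype replicates 1 to 3, against at most 0.00197% in any mutant library and 0.00217% in any empty vector library.

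Between wildtype and empty vector cells the mean share differed by -7.95 percentage points for Tubb5, 7.01 points for Tubb4b and 1.04 points for Tubb1. Between mutant and wildtype cells the differences were 8.62, -7.67 and -1.04 points for the same genes. Each of these 6 had a two-sided exact permutation p of 0.1, the smallest that 3 against 3 libraries can give, so none could pass 0.05; 24 share comparisons were made in all. Mutant and empty vector shares of both abundant isotypes overlapped, with differences of 0.669 points for Tubb5 and -0.665 points for Tubb4b (exact permutation p = 0.9 and 1) that changed sign, to -0.495 and 0.538 points, without empty vector replicate 1. Of the scarce isotypes, Tubb3 (0.0272 points) and Tubb6 (-0.0459 points) had mutant shares that did not overlap those of empty vector cells. Shares also did not overlap for Tubb2b (-0.0341 points) and Tubb6 (-0.0627 points) between wildtype and empty vector cells and for Tubb2b (0.0232 points) between mutant and wildtype cells, each of these 5 with an exact permutation p of 0.1. Shares sum to 100%, so those of Tubb5 and Tubb4b cannot move independently. Tubb5 itself was not called in any comparison, as given above.

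**Figure D3:**
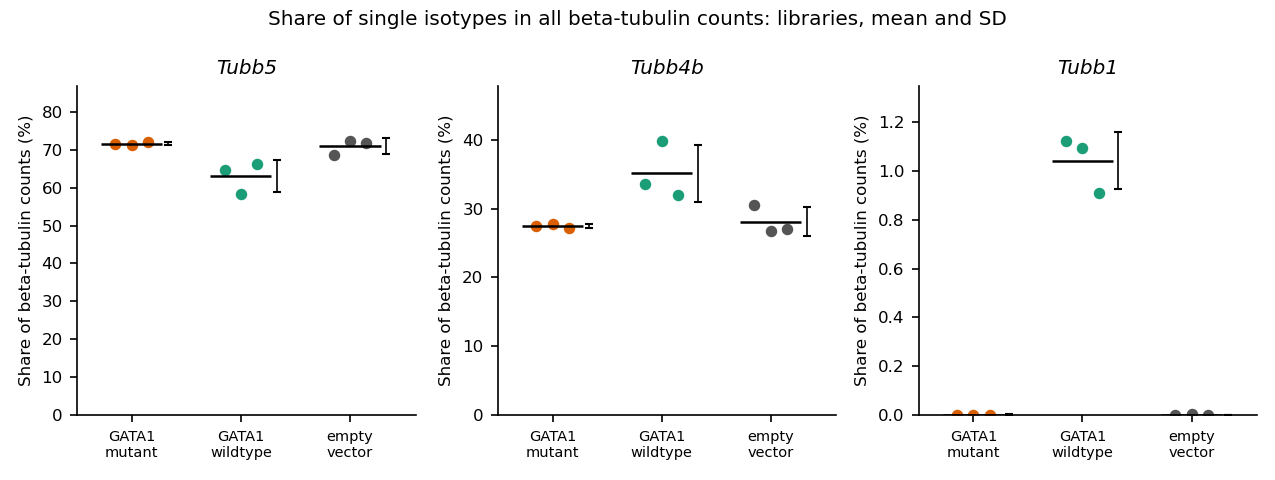
Share of Tubb5, Tubb4b and Tubb1 in all beta-tubulin counts of a library in percent (vertical axes from 0, each on its own scale), by group; points are libraries, lines are means and bars are SDs. In wildtype libraries Tubb5 is at 58.3% to 66.3% and Tubb4b at 31.9% to 39.9%, outside the ranges of the other 2 groups.

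The ratio of Tubb5 to Tubb4b counts shows the same libraries as 1 value each. It averaged 2.61 ± 0.0403 in mutant cells, 1.82 ± 0.319 in wildtype cells and 2.54 ± 0.250 in empty vector cells (SD, n = 3 each). Wildtype libraries, at 1.92, 1.46 and 2.07, were below all others. The two-sided exact permutation p was 0.1 for wildtype against empty vector cells and for mutant against wildtype cells, the smallest possible, and 1 for mutant against empty vector cells. Wildtype replicate 2 had the lowest ratio and the highest level of Tubb4b.

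Counts grow with transcript length, so the order of the isotypes was read from CPM per kilobase of the annotated transcript. In mutant cells the order was Tubb5 (961), Tubb4b (611), Tubb2a (16.4), Tubb3 (1.47), Tubb6 (0.917), Tubb2b (0.547), Tubb4a (0.201) and Tubb1 (0.0288), and no neighbours overlapped across the 3 libraries. In wildtype cells it was Tubb5 (843), Tubb4b (785), Tubb1 (26.5), Tubb2a (15.2), Tubb3 (1.38), Tubb6 (0.566), Tubb2b (0.166) and Tubb4a (0.133). There Tubb5 and Tubb4b overlapped, as did Tubb2b and Tubb4a. In empty vector cells it was Tubb5 (868), Tubb4b (567), Tubb2a (14.5), Tubb6 (1.69), Tubb3 (0.874), Tubb2b (0.673), Tubb4a (0.186) and Tubb1 (0.0166), and Tubb3 overlapped Tubb2b. Tubb1 was thus last in mutant and empty vector cells and next after Tubb5 and Tubb4b in wildtype cells. On this scale Tubb5 made up 60.4%, 50.7% and 59.6% and Tubb4b 38.4%, 46.7% and 39.1% of beta-tubulin in mutant, wildtype and empty vector cells.

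Alpha-tubulin is the partner of every beta-tubulin. Of 8 alpha-tubulin genes 4 could be tested, and Tuba4a, the alpha-tubulin also known from platelets, was the one called. That count was near the share over all tested genes. The share was 23.3% in wildtype against empty vector cells and 25.9% in mutant against wildtype cells. Tuba4a had 447, 441 and 369 CPM in mutant libraries, 983, 899.9 and 735 CPM in wildtype libraries and 336, 362 and 423 CPM in empty vector libraries. All wildtype libraries were above all others, with a log2 fold change of 1.22 ± 0.14 (SE; edgeR adjusted p = 4.2e-05) against empty vector cells, and mutant cells differed from wildtype cells by -1.06 ± 0.14 (edgeR adjusted p = 0.000163). Both calls stood in every alternative fit. Among all tested genes with a unique symbol, 32.6% did not overlap in the first of these comparisons and 44.2% in the second. Mutant against empty vector cells gave 0.17 ± 0.14 (edgeR adjusted p = 0.596). Tuba1b, the main alpha-tubulin of dividing cells, averaged 825 ± 84.6 CPM in mutant cells, 742 ± 102 CPM in wildtype cells and 744.5 ± 77.0 CPM in empty vector cells, and Tuba1a, Tuba1b and Tuba1c were not called in any comparison.

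**Figure D4:**
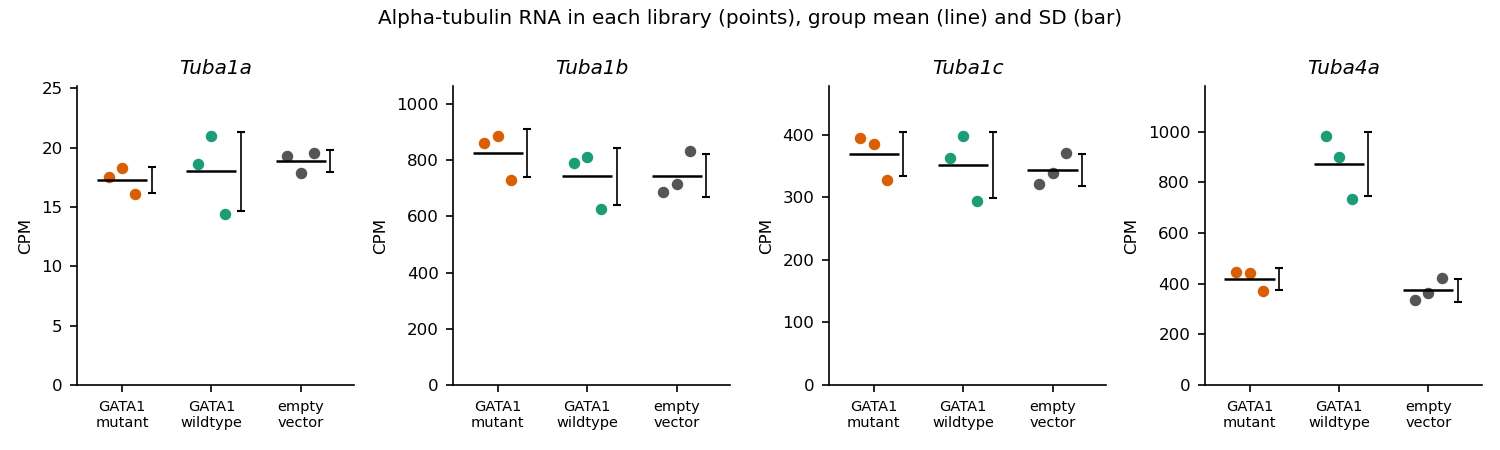
Level in CPM (vertical axes from 0, each on its own scale) of the 4 alpha-tubulin genes that could be tested, by group; points are libraries, lines are means and bars are SDs. Tuba4a stands at 735 to 983 CPM in wildtype libraries and at 336 to 447 CPM in the other 6, while the groups overlap for Tuba1a, Tuba1b and Tuba1c.

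The machinery that folds tubulin was largely not called in wildtype against empty vector cells. None of 7 tested subunits of the CCT chaperonin, which folds newly made tubulin, was called by edgeR in any comparison, none had an unadjusted p under 0.05 and DESeq2 called none; 1, Cct7, was called in wildtype against empty vector cells without wildtype replicate 3 (edgeR adjusted p = 0.0430). None of 6 prefoldin subunits, which hand tubulin to CCT, was called in that comparison by edgeR, against 2 with an unadjusted p under 0.05 and 2 called higher by DESeq2. Without wildtype replicate 3 edgeR called 3 prefoldin subunits higher, and without empty vector replicate 1 it called 2. Of 8 genes of the cofactors that assemble the dimer and their relatives, 2 were higher, beside 23.3% of all tested genes called in either direction: Tbccd1, at 44.6 ± 0.692 CPM in mutant, 72.5 ± 4.21 CPM in wildtype and 45.3 ± 0.0766 CPM in empty vector cells (edgeR adjusted p = 0.000590 for wildtype against empty vector cells), and Tbcel. The call of Tbcel (edgeR adjusted p = 0.0222) did not survive leaving out wildtype replicate 1 (0.0837) or replicate 1 (0.0517) or 2 (0.0793) of the empty vector. Ttc5, Scaper and Cnot11, through which free tubulin triggers decay of its own mRNA, were not called in any comparison of all 9 libraries, with 1 unadjusted p under 0.05 (Scaper) and no DESeq2 call in wildtype against empty vector cells. Scaper was called lower there without wildtype replicate 3 (edgeR adjusted p = 0.0128) or empty vector replicate 3 (0.0499). In mutant against wildtype cells it was called higher without wildtype replicate 3 (edgeR adjusted p = 0.0173) and with the replicate block in the 6 libraries of the pair (0.0326).

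Most genes that act on tubulin tails or on assembled microtubules did not pass the test, and the share called was near the 23.3% of all tested genes called in wildtype against empty vector cells. Of 11 tested genes that modify tubulin, most of them at its tails, 1 was higher and 2 were lower in wildtype than in empty vector cells, with 1 to 3 lower when single libraries were left out. Sirt2, a deacetylase that acts on alpha-tubulin among other proteins, averaged 48.5 ± 3.69 CPM in mutant cells, 81.5 ± 13.1 CPM in wildtype cells and 44.8 ± 6.98 CPM in empty vector cells (edgeR adjusted p = 0.00124 for wildtype against empty vector cells). Hdac6, the other tubulin deacetylase, averaged 21.2 ± 1.13, 11.9 ± 1.12 and 19.5 ± 4.42 CPM in mutant, wildtype and empty vector cells (edgeR adjusted p = 0.0120), not called without wildtype replicate 1 (0.0713) or without replicate 2 of the empty vector (0.0533). Agtpbp1, which shortens glutamate chains on tubulin, averaged 52.0 ± 1.93, 37.5 ± 4.22 and 56.3 ± 1.24 CPM in mutant, wildtype and empty vector cells (edgeR adjusted p = 0.00344).

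Of 23 tested genes of microtubule growth and stability, 2 were higher and 4 lower in wildtype than in empty vector cells, by edgeR, again near the 23.3% of all tested genes. Leaving out single libraries gave 1 to 3 higher and 3 to 6 lower, and DESeq2 called 4 higher and 4 lower. Ranbp10, which binds Tubb1 in megakaryocytes, had 30.3, 26.8 and 24.2 CPM in mutant libraries, 42.6, 30.4 and 38.6 CPM in wildtype libraries and 14.6, 16.8 and 18.2 CPM in empty vector libraries. Wildtype against empty vector cells gave a log2 fold change of 1.17 ± 0.16 (SE; edgeR adjusted p = 0.000194). Mutant libraries were also above all empty vector libraries, and that difference was not called by edgeR (adjusted p = 0.128) but was by DESeq2 (0.0102) and by edgeR without empty vector replicate 3 (0.0269). Map4, a microtubule-stabilising protein, averaged 53.0 ± 2.78, 26.3 ± 2.64 and 51.9 ± 6.94 CPM in mutant, wildtype and empty vector cells (edgeR adjusted p = 0.000218). Mapre2, a plus-end binding protein, averaged 41.6 ± 1.71, 22.9 ± 2.89 and 48.1 ± 5.06 CPM in mutant, wildtype and empty vector cells (edgeR adjusted p = 0.000101).

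Gamma-tubulin and its ring start microtubules at centrosomes. Of 11 tested genes of gamma-, delta- and epsilon-tubulin and of that ring, 2 were higher and 1 was lower in wildtype than in empty vector cells. That was also near the 23.3% of all tested genes. Leaving out single libraries gave 1 to 3 higher and 0 to 1 lower. Tubgcp3, a ring subunit, averaged 92.7 ± 1.75, 127 ± 4.77 and 94.0 ± 2.75 CPM in mutant, wildtype and empty vector cells (edgeR adjusted p = 0.00692). Tubd1 (edgeR adjusted p = 0.0175) was higher and Tube1 (0.0269) lower. Tubd1 was not called without wildtype replicate 1 (0.0544) or 2 (0.0640) or without replicate 2 of the empty vector (0.0505). Tube1 was not called without wildtype replicate 1 (0.132) or 2 (0.0799) or without replicate 1 (0.0628) or 2 (0.0774) of the empty vector.

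Over the tested genes of each list, the median log2 fold change of wildtype against empty vector cells was 0.01 for alpha-tubulins, 0.12 for folding cofactors, -0.02 for CCT, 0.16 for prefoldin, -0.13 for the mRNA decay genes, 0.17 for tail-modifying genes, -0.07 for genes of growth and stability and 0.17 for the NF-E2 genes, beside -0.04 over all tested genes.

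In mutant against wildtype cells the same lists gave 0 higher and 2 lower of the 11 gamma-, delta- and epsilon-tubulin genes, 1 higher and 2 lower of the 8 folding cofactors, 0 higher and 2 lower of the 6 prefoldin subunits, 3 higher and 1 lower of the 11 tail-modifying genes, and 5 higher and 3 lower of the 23 genes of growth and stability, where 25.9% of all tested genes were called. With a block for replicate number in the fit of these 6 libraries edgeR called 2 higher and 4 lower, 1 higher and 3 lower, 0 higher and 5 lower, 4 higher and 1 lower, and 6 higher and 5 lower of these 5 lists in turn, but 48.1% of all 9846 genes tested in that fit were called. Leaving out 1 library, the gamma-, delta- and epsilon-tubulin counts ranged from 0 to 1 higher with 2 lower, the folding cofactor counts from 0 to 1 higher and 1 to 3 lower, the prefoldin count from 0 to 3 lower, the tail-modifying counts from 1 to 3 higher with 1 lower and the growth and stability counts from 3 to 6 higher and 0 to 4 lower. In mutant against empty vector cells edgeR called no gene of any of these lists, and without empty vector replicate 3 it called 2, 0, 2, 1 and 2 of them, where the share over all genes was 8.3% in place of 0.271%. Unadjusted p-values under 0.05 numbered 2 of 11, 0 of 8, 2 of 6, 1 of 11 and 3 of 23 there, and DESeq2 called 1 gene, Ranbp10.

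The genes whose profiles over the 9 libraries lay nearest to those of the members were found by the root mean square difference of centred log2 CPM, where 0 is an identical profile. A prior count of 2 was added before the logarithm. Nearest to Tubb1 were Mybpc3 (0.55), Hba-x (0.71) and Slc38a5 (0.78), against a root mean square deviation of 3.67 for Tubb1 itself. Tubb1, Mybpc3 and Hba-x were near 0 in mutant and empty vector libraries, where the prior count largely sets the value. Their likeness thus rests mainly on the wildtype libraries. Mybpc3, a heart sarcomere protein, averaged 0.0201 CPM in mutant cells, 58.6 ± 10.6 CPM in wildtype cells and 0 CPM in empty vector cells, with 1 count in the 3 mutant libraries together. Hba-x, the embryonic zeta-globin, averaged 0.276 ± 0.153, 33.3 ± 12.8 and 0 CPM in mutant, wildtype and empty vector cells. Slc38a5, an amino acid transporter, averaged 1.11 ± 0.608, 88.0 ± 13.8 and 0.816 ± 0.297 CPM in mutant, wildtype and empty vector cells. Nearest to Tubb4b were Ncaph2 (0.03), Mrps18a (0.04) and Nubp2 (0.04), and nearest to Tubb5 were Lig1, Zpr1 and Rpn2 (0.03 each), beside own deviations of 0.24 and 0.13. Tubb2a was nearest to Ppan, Tmem115 and Lman2l, Tubb2b to Trim3, Sytl5 and P2rx7, Tubb3 to Kif9, Gsk3a and Srrd, and Tubb6 to Dok2, Abhd14b and BC018473.

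Tubb6 and Tubb2b were lower in wildtype than in empty vector cells. So were 2 mast cell markers, whereas the 1 tested granulocyte and monocyte marker was not called. The 8 mast cell markers summed to 11.2 to 14.7 CPM in mutant cells, 4.04 to 5.39 CPM in wildtype cells and 31.1 to 36.3 CPM in empty vector cells, with Mcpt8 and Tpsb2 at 0 in all libraries. Of 3 tested, 2 were lower in wildtype than in empty vector cells, led by Cpa3 (mast cell carboxypeptidase) at 3.87 ± 0.556 CPM against 31.4 ± 3.04 CPM. Over all tested genes 11.9% were called lower in that comparison. The call of the other, Ms4a2, was lost without wildtype replicate 1 (edgeR adjusted p = 0.0638). In mutant against empty vector cells Cpa3 (11.7 ± 1.65 CPM in mutant cells, edgeR adjusted p = 0.00134) and Ms4a2 (0.0403) were also called lower. Neither Tubb2b nor Tubb6 was called there, where 0.0601% of all tested genes were called lower. That call of Ms4a2 was lost in 8 of 16 alternative fits. The 8 granulocyte and monocyte markers summed to 0.974 to 1.36 CPM in mutant cells, 0 to 0.880 CPM in wildtype cells and 0.451 to 0.629 CPM in empty vector cells, and the 1 tested, Mpo, was not called in wildtype against empty vector cells. All 10 erythroid markers were higher in wildtype than in empty vector cells, where 11.4% of all tested genes were. In mutant cells 6 were higher than in empty vector cells, where 0.21% of all tested genes were. That mutant count was 3 without empty vector replicate 2, 4 without mutant replicate 2 or empty vector replicate 1 and 8 without empty vector replicate 3. The part of these markers in the tubulin differences was not tested.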

How the data were processed

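Bulk RNA-seq of 9 libraries in 3 groups, taken from the labels, was analysed. The authors deposited 1 table of raw counts per gene (27998 mouse rows and human GATA1). Smart-seq2 libraries with Nextera indexing keep no strand, per the labels' protocols. The aligner was STAR with GRCm38.p4 and hg19, per the submitters' processing notes. The counting tool and its handling of reads with several matches were not given in the sources used here.

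Mouse counts were tested with edgeR 4.0.16 (TMM, filterByExpr, quasi-likelihood; all 9 libraries, 6 residual degrees of freedom) over 9978 genes, with Benjamini-Hochberg adjustment and a threshold of 0.05. SEs were derived as log2 fold change divided by the root of F. CPM use TMM-scaled sizes. Shares were compared by two-sided exact permutation. Library totals of 11364358 to 17289307 counts set the precision.

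Members and lists were chosen with earlier results of these data known. Named were all 8 members, tested alpha-tubulins, the 3 genes of smallest p per list in wildtype against empty vector cells, and the 3 genes nearest each member. DESeq2 1.42.0, other scalings, filters and designs, single libraries left out and summed near copies were alternatives. In mutant and wildtype cells same-numbered libraries deviated together (correlations 0.17 to 0.53, against -0.41 to 0.24 between different numbers). The main fit and the share permutations nevertheless treated libraries as unpaired, and a block for replicate number was used only in alternative fits. Replicate 1 of each group correlated more with replicate 2 of the other, and the labels do not say what a number stands for. In the other comparisons same-numbered libraries did not deviate together (-0.44 to -0.20). The test was checked on simulated counts, with known changes put into wildtype libraries. Against empty vector libraries it recovered 20% of 1.5-fold, 68% of 2-fold and 100% of 4-fold changes. A gene that was not called can therefore still differ by a small fold. Cct6a was not analysed here.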

Additional observations from a re-analysis of the deposited data

How the results depend on the processing

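Counts of called members depended on the design. In the fits with near copies summed, Tubb2b was merged into Tubb2a and Tubb4a into Tubb4b, so Tubb2b could not be called on its own. Tubb4a and Tubb4b were 83.4% identical in coding sequence, and summing them did not address windows that Tubb4b shares with pseudogenes. For wildtype against empty vector cells, 1 member was higher with only the 6 libraries and 1 with a replicate block (2 in the main design), Tubb4b being lost in both; 0 were lower with a filter of 5 CPM in 3 libraries, which left Tubb2b and Tubb6 untested, and 1 with near copies summed (2 in the main design). Without single libraries the counts ranged from 1 to 2 higher and from 0 to 2 lower. For mutant against wildtype cells, 0 were higher with the 5 CPM filter, 0 with mutant replicates 1 and 2 summed and 0 with near copies summed (1 in the main design), while 2 were lower with DESeq2 and 2 with the replicate block in those 6 libraries (1 in the main design), an alternative added after seeing the data. Tubb4b was the member added with DESeq2 and with that block. Without single libraries the counts ranged from 0 to 1 higher and from 1 to 2 lower. For mutant against empty vector cells the count was 0 in each direction in every alternative run. The replicate block changed no other member's call.

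Of the members' log2 fold changes under alternatives, 311 kept direction and side of the threshold, 15 fell below it, 3 passed it and 6 changed sign; of the share differences 198 kept their sign and 7 changed it. The sign changes were in uncalled values. Tubb2a in wildtype against empty vector cells was -0.00030 with near copies summed and ranged from -0.040 to 0.20 without single libraries. Over the same omissions Tubb5 ranged from -0.12 to 0.031 there, Tubb2b in mutant against empty vector cells from -0.54 to 0.15 and Tubb3 in mutant against wildtype cells from -0.15 to 0.26. Share differences in percentage points ranged from -0.0521 to 0.00494 for Tubb2a (wildtype minus empty vector), from -0.00287 to 0.00302 for Tubb4a, from -1.34 to 0.538 for Tubb4b and from -0.495 to 1.36 for Tubb5 (mutant minus empty vector), and from -0.00733 to 0.0156 for Tubb3 (mutant minus wildtype). The summed level of mutant over wildtype cells was 1.08 with library totals (1.0 in the main design). The cause of these changes was not tested, beyond genes left untested by a filter. Depth limits Tubb1 in mutant and empty vector cells, Tubb2b, Tubb3, Tubb4a and Tubb6, each at 62 counts or fewer per library there.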
